A study of Mus musculus with 8 samples.

Results

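Caveolae are flask-shaped pits of the plasma membrane that carry cargo into and across endothelial cells. Caveolin proteins build their membrane coat, cavins form a second coat around it, and EHD and PACSIN family proteins shape and anchor the neck. Endothelium of the blood-brain barrier holds few of these vesicles. MFSD2A, a lipid transporter of the barrier endothelium, imports lysophospholipids that carry omega-3 fatty acids into the brain, and its activity keeps caveolar transcytosis low. PLVAP forms the diaphragms of fenestrae and of some caveolae and is low in mature barrier vessels, and LRP8 is a lipoprotein receptor that also binds reelin. The genes described here were matched by symbol to 10 of the 25700 gene identifiers in the count tables. They are the caveolins Cav1 and Cav2, the cavins Cavin1, Cavin2 and Cavin3, the accessory genes Ehd2 and Pacsin2, the fenestral gene Plvap, and Mfsd2a and Lrp8.

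Messenger RNA was sequenced from brain endothelial cells of C57BL/6 mouse pups, isolated by flow cytometry at postnatal day 6. One group of 4 pups lacked GLUT1, the main glucose transporter of the barrier, in endothelial cells (GLUT1EC-/-, here KO), and the other 4 pups were wild type (WT) and are named as littermates in the labels. The promoter that drove the deletion is not given in the sources used here. Each pup gave 1 library, and the single comparison of the design was KO against WT. The sample titles put WT pup 5 in the cage that held all 4 KO pups, and WT pups 1, 2 and 3 in another. The deposited file names instead put WT pup 3 in the KO cage, and under both readings genotype and cage can hardly be told apart.

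Library totals ran from 20.9 to 114 M counts (M for mega). The unit of level is CPM, counts per 1000000 of the library after TMM scaling. Slc2a1, the gene of GLUT1, was lower in each KO pup (1386 to 1602 CPM) than in each WT pup (2238 to 3726 CPM). This fitted the labels in direction, but Slc2a1 transcript remained in KO, with a mean of 1507 CPM beside 3044 CPM in WT. KO pup 1 stood apart, with 13624 detected genes against 15756 to 17082 and correlations with the other libraries of 0.913 to 0.932 across genes. WT pup 2 was the deepest library. The summed level of 12 pan-endothelial markers was 15408 to 17283 CPM in KO and 16324 to 17295 CPM in WT, so the labelled cell type was borne out by its markers in all 8 libraries.

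All 10 genes were well covered, with 744 counts (Plvap) as the lowest value of any of them in any library, and all 10 passed the filter on low counts. In edgeR's quasi-likelihood test, with p-values adjusted by the Benjamini-Hochberg method over 14154 genes and a threshold of 0.05, 0 of the 10 were called, against 0.389% of all genes tested. At an unadjusted p under 0.05, 5 of the 10 (Cavin1, Cavin2, Cavin3, Ehd2 and Lrp8) were counted, all lower in KO, where 5.61% of all genes were lower at that level. DESeq2 called 3 of the 10 lower in KO, Cavin1, Cavin2 and Lrp8, against 1.36% of all genes, while limma-voom called 0. The fold change was below 0 for 9 of the 10 genes and for 49.7% of all genes. The median log2 fold change (KO minus WT) was -0.28 over the 10 and 0.00 over all genes tested. In bulk RNA of sorted cells, fewer cells of one endothelial subtype and less RNA per cell cannot be told apart.

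**Figure D1:**
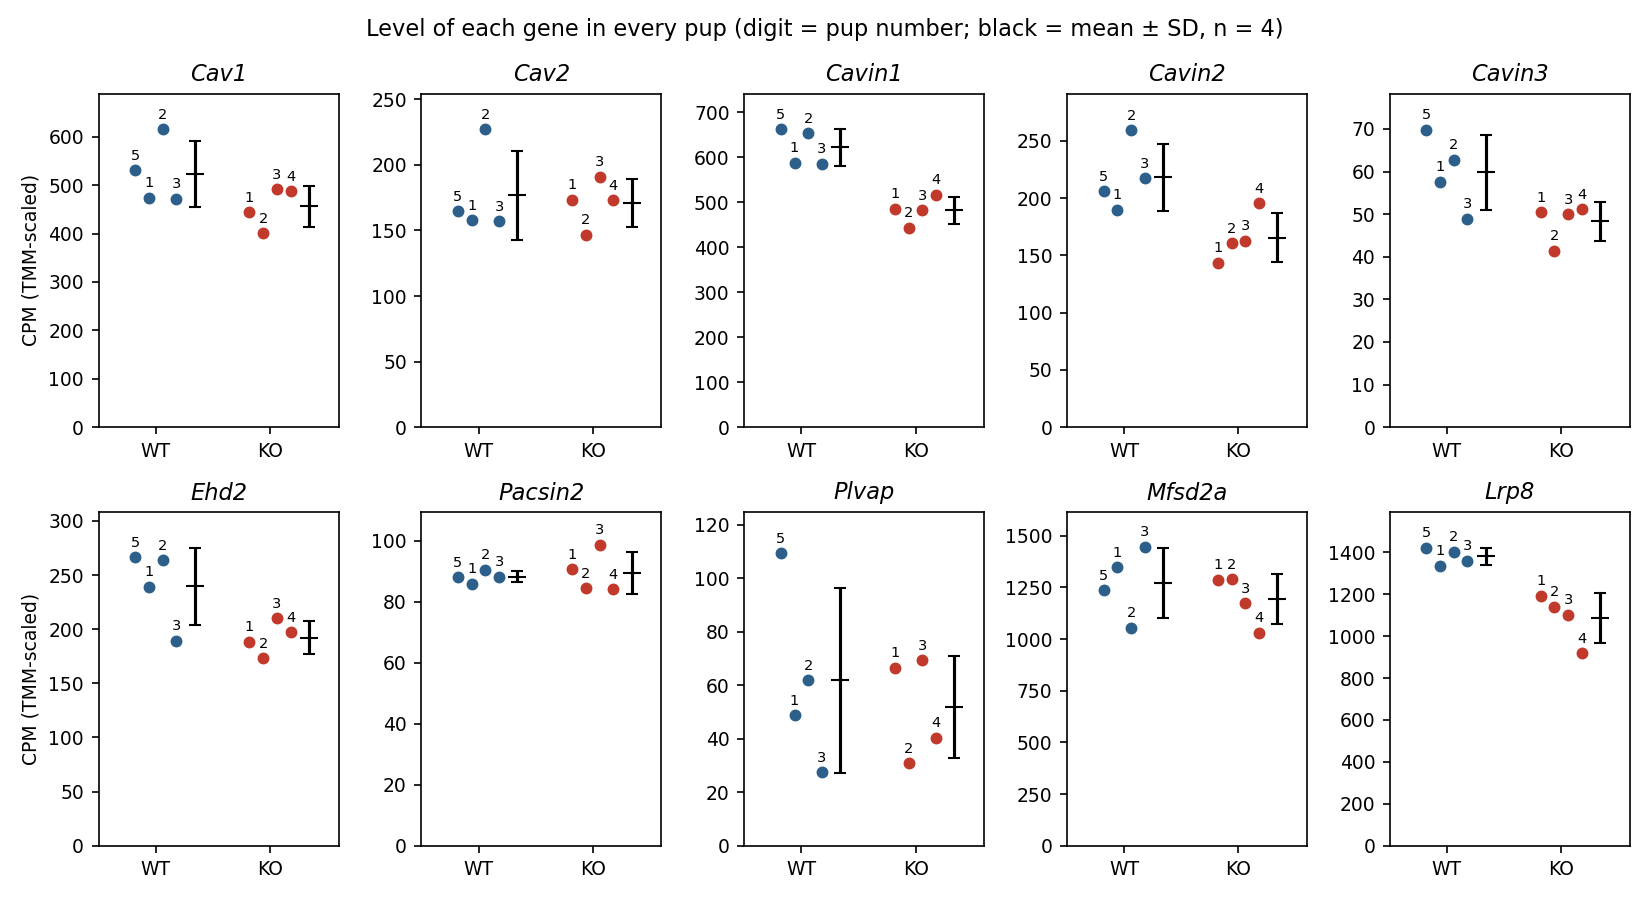
CPM (vertical axes, each starting at 0) of the 10 genes in the 4 WT and 4 KO pups, with each point marked by its pup number and the mean ± SD in black. The groups are separate for Cavin1 (443.5 to 516.6 against 585.3 to 661.9 CPM) and Lrp8 (918.7 to 1192 against 1336 to 1423 CPM) and overlap for the other 8 genes.

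The caveolins share a locus, and their upstream sequences and that of Cavin2 are shown because these are the coat genes whose windows lie outside annotated exons. Cav2 lies at chromosome 6, 17281185 to 17289115, and Cav1 follows at 17306335 to 17341452 on the same (plus) strand, 17219 bases further on (GRCm38, GENCODE M21). Cavin2 lies at chromosome 1, 51289126 to 51302960, plus strand. The 250 bases before each start, from RefSeq's GRCm38.p6 table, read 5′ to 3′ on the plus strand as follows, with every match to the motifs searched in capitals.
Cav1, chr6:17306085-17306334: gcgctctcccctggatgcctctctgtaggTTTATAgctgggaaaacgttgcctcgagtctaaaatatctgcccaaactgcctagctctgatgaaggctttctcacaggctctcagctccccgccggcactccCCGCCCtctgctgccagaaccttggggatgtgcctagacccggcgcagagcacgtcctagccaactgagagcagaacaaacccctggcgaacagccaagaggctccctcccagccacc
Cav2, chr6:17280935-17281184: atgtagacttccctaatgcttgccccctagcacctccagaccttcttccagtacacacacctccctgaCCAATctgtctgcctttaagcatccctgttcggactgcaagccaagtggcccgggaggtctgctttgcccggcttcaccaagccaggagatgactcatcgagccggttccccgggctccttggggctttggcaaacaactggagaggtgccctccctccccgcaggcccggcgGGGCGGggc
Cavin2, chr1:51288876-51289125: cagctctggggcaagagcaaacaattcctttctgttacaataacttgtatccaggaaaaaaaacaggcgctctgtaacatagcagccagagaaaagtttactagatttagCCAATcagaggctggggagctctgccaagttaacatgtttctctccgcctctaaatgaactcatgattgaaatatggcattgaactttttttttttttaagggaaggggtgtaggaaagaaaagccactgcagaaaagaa

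The motifs searched on both strands were the GC box GGGCGG, the NF-Y motif CCAAT, the ETS family core CCGGAA, the TCF and LEF family core CTTTGA, the E-box CACGTG and the TATA box TATAAA. Of the 10 genes, 8 had a window in the table. Some windows overlapped annotated exons: that of Cavin1 in all 250 bases, Mfsd2a in 110, Lrp8 in 43 and Ehd2 in 32. The motif counts therefore include exonic sequence for these genes. CCAAT occurred in 6 of the 8 windows (Cav2, Cavin1, Cavin2, Ehd2, Pacsin2 and Mfsd2a) and in 33.8% of all 32851 windows of that length. GGGCGG occurred in 5 of the 8 and in 32.7% of all windows. CCGGAA was found in the window of Lrp8 (12.03% of all), CTTTGA in that of Mfsd2a (13.8%), TATAAA in that of Cav1 (12.4%) and CACGTG in none of the 8 (6.02%). The bases of Cav1 and Cav2 were 59.6% and 62% G or C and those of Cavin2 40.4%, beside a median of 52.4% over all windows. These matches are descriptions of letters only, and CCAAT was found both in Cavin2, with the lowest fold change of the 10 genes, and in Pacsin2, with the highest.

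Levels can be compared between genes only per length, and they were taken as CPM per kilobase of merged exon. Mfsd2a had the highest such level, 565 ± 74.7 in WT and 531 ± 54.4 in KO (SD, n = 4 each). Cavin1 (173 ± 11.5 in WT), Cav1 (152 ± 19.7) and Lrp8 (131 ± 3.78) followed. Of these neighbours Cavin1 and Cav1 overlapped between pups, whereas Cav1 lay above Lrp8 in every WT pup and every KO pup. Below them came Cavin2 (71.4 ± 9.68), Cav2 (53.0 ± 10.1), Ehd2 (46.8 ± 6.95), Cavin3 (36.0 ± 5.28), Plvap (31.1 ± 17.4) and Pacsin2 (18.0 ± 0.372), and each of these overlapped with the next in WT. The order of the 10 means was the same in KO as in WT. The place of Lrp8 below Cav1 rests on its merged exon length, 10514 bases against 3444 for Cav1. Before scaling by length, Lrp8 averaged 1380 CPM and Cav1 523 CPM in WT. Per kilobase, the Plvap level was 0.0572 ± 0.0339 of the Mfsd2a level within WT libraries and 0.0492 ± 0.0175 within KO libraries, so the transcript of the transcytosis-limiting transporter exceeded that of the fenestral diaphragm in all 8 pups.

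**Figure D2:**
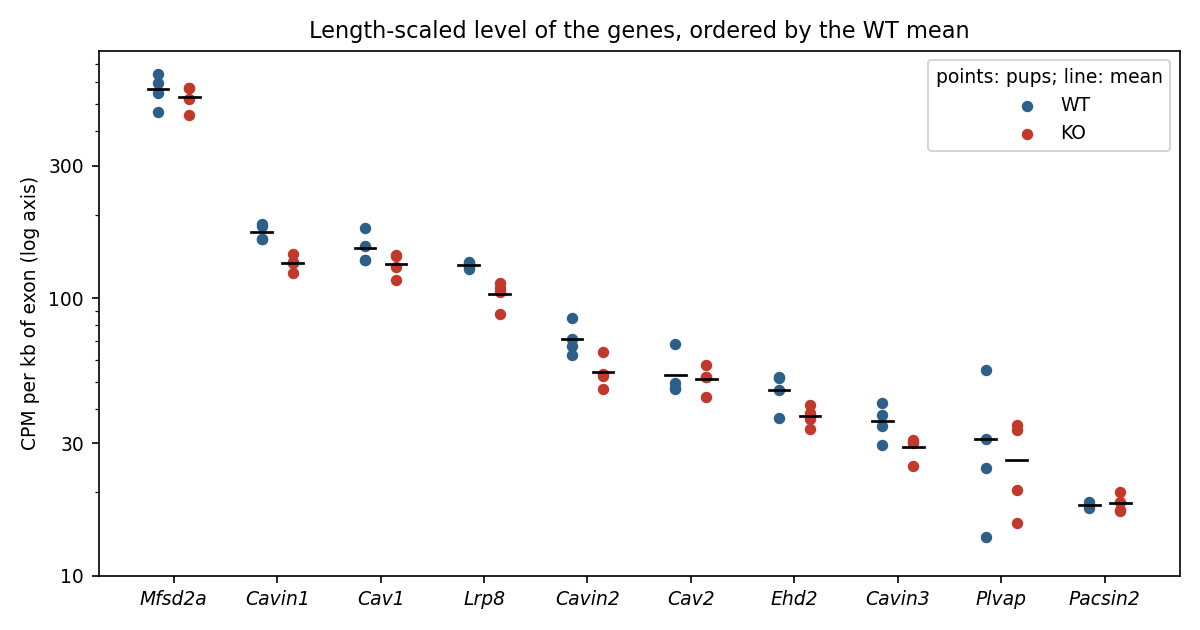
CPM per kilobase of exon (log axis) for the 10 genes in each WT (blue) and KO (red) pup, with the group mean as a line, ordered by the WT mean. Mfsd2a lies above the others in both groups, and Plvap has the widest spread, from 13.8 to 55.0 in WT.

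Among the caveolins, Cav1 encodes the principal structural protein of caveolae in endothelium and Cav2 its partner in mixed oligomers. Cav1 measured 444, 401, 492 and 487 CPM in KO pups 1 to 4 and 531, 474, 616 and 472 CPM in WT pups 5, 1, 2 and 3. WT pups 2 and 5 were the highest and the other 2 WT pups lay within the KO range. The log2 fold change of Cav1 was -0.20 (SE 0.10, 95% interval -0.42 to 0.03, edgeR adjusted p 0.521). Cav2 measured 173, 147, 191 and 173 CPM in KO pups 1 to 4 and 165, 158, 227 and 157 CPM in WT pups 5, 1, 2 and 3. WT pup 2 was the highest by far and the remaining 3 WT pups lay inside the KO range. The fitted difference of Cav2 was -0.05 on the log2 scale (SE 0.13, interval -0.33 to 0.23, adjusted p 0.934). Without WT pup 2, Cav1 was at -0.11 (adjusted p 0.75) and Cav2 at 0.09 (adjusted p 0.809). The sign of Cav2 also turned without KO pup 2 and with either reading of the cages as a term. Per kilobase, Cav2 stood at 0.387 ± 0.0177 of Cav1 within KO libraries and 0.347 ± 0.0249 within WT libraries, with ranges that overlapped (0.367 to 0.403 and 0.320 to 0.381).

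Of the 3 cavins, Cavin1 was the one whose groups did not overlap. Cavin1, which encodes the cavin needed to form caveolae, lies at chromosome 11, 100956733 to 100970887, minus strand. It measured 486, 444, 482 and 517 CPM in KO pups 1 to 4 and 662, 588, 653 and 585 CPM in WT pups 5, 1, 2 and 3. Every KO pup lay below every WT pup, a separation seen in this direction for 3.43% of all genes tested and for 2 of the 10 genes here, Cavin1 and Lrp8. Cavin1 in KO stood at 77.5% of WT, and its log2 fold change was -0.37 (SE 0.08, interval -0.53 to -0.20), with an edgeR adjusted p of 0.0737 and a DESeq2 adjusted p of 0.000441. Cavin1 ranked 89th by p among the 14154 genes.

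Cavin2, whose protein binds phosphatidylserine and helps to curve the caveolar membrane, measured 144, 160, 163 and 195 CPM in KO pups 1 to 4 and 206, 190, 259 and 217 CPM in WT pups 5, 1, 2 and 3. KO pup 4 lay above WT pup 1, which made this the sole overlap. Its log2 fold change was the lowest of the 10 genes, -0.40 (SE 0.11, interval -0.65 to -0.15), with an adjusted p of 0.21 in edgeR and 0.0388 in DESeq2. Cavin3, whose protein joins the cavin coat through Cavin1, measured 50.5, 41.4, 50.02 and 51.2 CPM in KO pups 1 to 4 and 69.8, 57.6, 62.8 and 49.0 CPM in WT pups 5, 1, 2 and 3. WT pup 3 lay within the KO range and the other WT pups above it, and its log2 fold change was -0.31 (SE 0.12, adjusted p 0.348). The predicted gene Gm45667 covers 22.5% of the exon length of Cavin3 on the opposite strand. With a strand setting that is not given, their reads cannot be told apart, but Gm45667 had 0 to 15 counts in any library against 1000 to 7004 for Cavin3.

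Of the neck proteins, Ehd2 encodes an ATPase that holds caveolae at the surface and Pacsin2 a membrane-bending F-BAR protein. Ehd2 measured 188, 173, 210 and 197 CPM in KO pups 1 to 4 and 266, 239, 263 and 189 CPM in WT pups 5, 1, 2 and 3. As with Cavin3, WT pup 3 lay among the KO pups. The log2 fold change of Ehd2 was -0.32 (SE 0.11, interval -0.56 to -0.08, adjusted p 0.288). Pacsin2 had a KO mean of 89.4 ± 6.86 CPM beside 88.1 ± 1.83 CPM for WT, the groups overlapped, and the 95% interval of the difference ran from -9.58% to 13.8% relative to WT. Pacsin2 has roles in endocytosis beyond caveolae.

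Fold changes with cage in the model differed by gene. With the cages of the titles as a term, Cavin1 was at -0.46 (adjusted p 0.376), Cavin3 at -0.53 (adjusted p 0.492) and Ehd2 at -0.47 (adjusted p 0.551). With the cages of the file names these values were -0.28 (adjusted p 0.883), -0.02 (adjusted p 0.9995) and 0.02 (adjusted p 0.9995). In each fit the genotype difference depends on 1 WT pup that shares the KO cage, WT pup 5 in one and WT pup 3 in the other, and WT pup 3 is the WT pup with the lowest Cavin3 and Ehd2. Cavin2 was at -0.31 and -0.39 and Cav1 at -0.22 and -0.05 under the same terms. A fit limited to the KO cage of the titles sets 4 KO pups against WT pup 5 alone, assumes that this lone pup varies like the KO pups, and gives nearly the values of the term from the titles by construction, so it is no separate check.

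**Figure D3:**
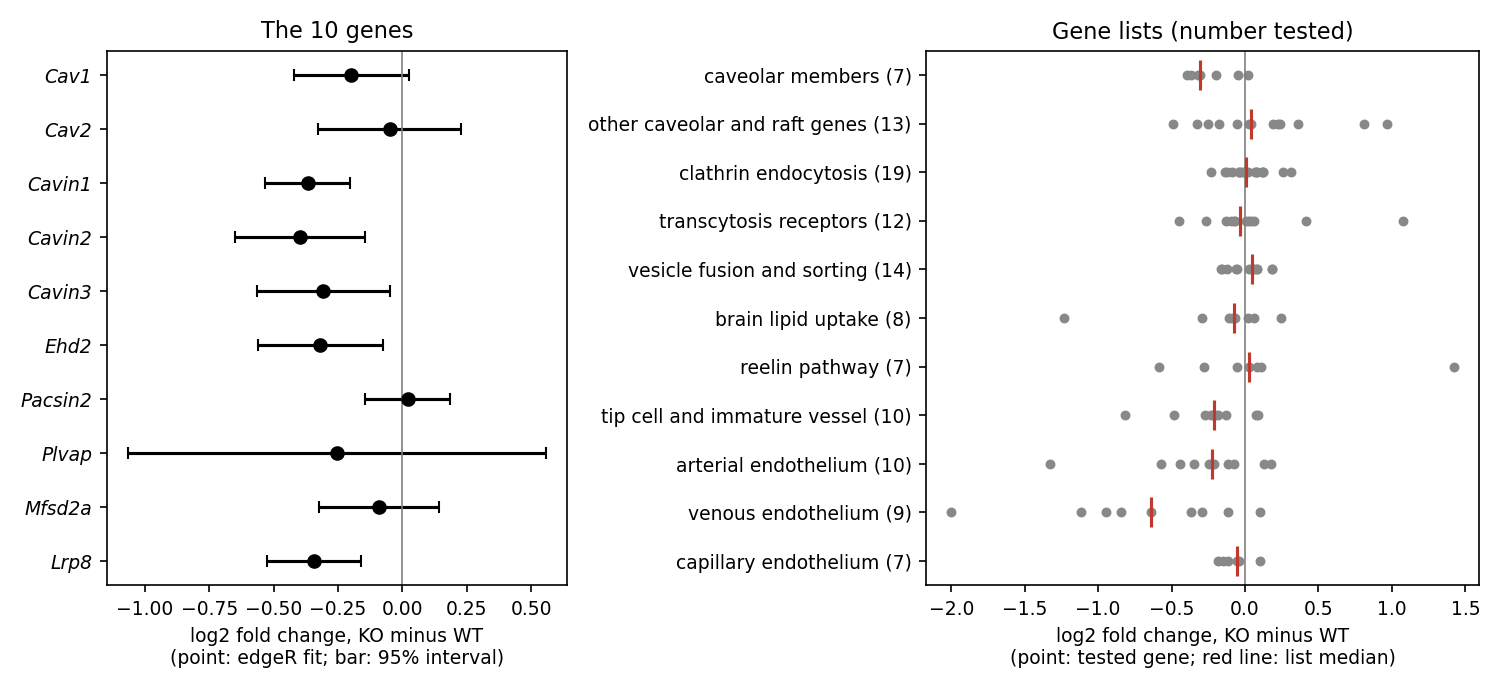
Left, log2 fold change (KO minus WT) of the 10 genes with 95% intervals from the edgeR fit; right, the fold changes of all tested genes of each list (points) with the list median (red line). The intervals of Cavin1, Cavin2, Cavin3, Ehd2 and Lrp8 lie below 0, and the caveolar genes have a median of -0.31 while clathrin endocytosis has 0.01.

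The 7 caveolar genes (caveolins, cavins, Ehd2 and Pacsin2) summed to 1451 to 1704 CPM in KO and 1758 to 2172 CPM in WT, and their median log2 fold change was -0.31. Cavin1 and Cav1 made up most of these sums, and Cavin1 was the only gene of the 7 whose groups did not overlap. Mural cells also make caveolae. The sum of the mural markers was 1760 to 2652 CPM in KO and 479 to 2671 CPM in WT, with a median log2 fold change of 0.25 and 0 of 10 markers called in edgeR or DESeq2 (1 higher at an unadjusted p under 0.05). WT pup 2, at 479 CPM, had the lowest mural sum and the highest Cav1, Cav2 and Cavin2. Cavin1, Cavin3 and Ehd2 were highest in WT pup 5, and Pacsin2 in KO pup 3. Fibroblast markers summed to 99.7 to 248 CPM in KO and 113 to 253 CPM in WT. Of the 6 astrocyte markers, 5 had a higher and 1 a lower value in KO (4 higher and 1 lower at an unadjusted p under 0.05, 0 called in edgeR or DESeq2, median log2 fold change 0.99). Gfap averaged 38.9 CPM in KO and 14.6 CPM in WT, Aqp4 13.5 and 6.19 CPM, and Slc1a2 11.5 and 5.47 CPM. The astrocyte sum, 307 to 408 CPM in KO and 315 to 377 CPM in WT, is mostly Gja1, which averaged 255 and 299 CPM. Microglial and macrophage markers summed to 892 to 2499 CPM in KO and 848 to 1366 CPM in WT, with a median log2 fold change of 0.44 and 0 of 7 called in edgeR or DESeq2 (2 higher at an unadjusted p under 0.05). Over all 14154 genes tested, edgeR gave 1575 an unadjusted p under 0.05 in either direction, and 794 (5.61% of all) were lower in KO. The part of mural, fibroblast, astrocyte and microglial cells in the caveolar values was not tested. Scaling by the 12 pan-endothelial genes in place of all genes gave -0.33 for Cavin1, -0.36 for Cavin2 and -0.32 for Lrp8. Cav1, Cavin3, Ehd2, Cav2 and Pacsin2 were at -0.16, -0.27, -0.28, -0.01 and 0.05. The scaling sets 1 factor per library, and the median over all genes was 0.04 under it. It moves all genes alike and cannot tell cell types apart.

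Markers of endothelial subtypes also differed between libraries. In the brain, arteriolar endothelium is rich in caveolae and poor in MFSD2A compared with capillaries. Arterial markers summed to 1611 and 1765 CPM in WT pups 5 and 2, the pups highest for Cav1, Cavin1, Cavin3 and Ehd2. They summed to 1171 to 1223 CPM in the other WT pups and 1164 to 1238 CPM in KO. The remaining caveolar genes had other orders. Cavin2 was higher in WT pup 3 than in WT pup 5. Cav2 in WT pup 5 lay below KO pups 1, 3 and 4, and Pacsin2 was highest in KO pups 3 and 1. Of the 10 arterial genes 0 were called in edgeR (4 lower at an unadjusted p under 0.05, 3 lower in DESeq2). Among all genes tested, 5.61% were lower at that unadjusted p and DESeq2 called 1.36% lower. Gja5 (connexin 40) was at -1.33 (edgeR adjusted p 0.0826) and Hey1 at -0.35 (adjusted p 0.179). Venous markers summed to 2481 to 2582 CPM in KO and 3122 to 4039 CPM in WT, with no overlap. Their median log2 fold change was -0.64. The sum averaged 2544 CPM in KO and 3640 CPM in WT, and Vwf alone made up most of it in WT. Of the 9 venous genes edgeR called 1, Vwf, which fell in KO from 2110 ± 286 to 1173 ± 85.9 CPM (adjusted p 0.00298), where 0.389% of all genes were called. At an unadjusted p under 0.05, 5 of the 9 were lower in KO, DESeq2 called 4 lower, and 4 did not overlap between the groups. Over all genes tested these shares, each for lower in KO, were 5.61%, 1.36% and 3.43%. Lcn2, another venous marker, averaged 3.59 ± 1.42 CPM over the KO pups and 14.5 ± 7.82 CPM over the WT pups (adjusted p 0.0881). Capillary markers overlapped (15272 to 18462 and 16149 to 20432 CPM), with 0 of 7 called in edgeR, at an unadjusted p under 0.05 or in DESeq2, and Slc7a5 and Rgcc at -0.18 and -0.11. The part of these subtypes in the caveolar values was not tested.

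Plvap was the least even of the 10 genes. It lies at chromosome 8, 71497765 to 71511752, minus strand, and measured 66.5, 30.8, 69.3 and 40.4 CPM in KO pups 1 to 4 and 109, 48.7, 61.8 and 27.5 CPM in WT pups 5, 1, 2 and 3. WT pup 5 was the highest and WT pup 3 the lowest of all 8, a 3.98-fold range in WT beside 2.25-fold in KO, and the coefficient of variation was 56.1% in WT and 36.9% in KO. The log2 fold change was -0.25 with an SE of 0.37, and the interval of -1.07 to 0.56 allows anything from a 52.3% decrease to a 47.2% increase (edgeR adjusted p 0.867). Without WT pup 5 the value was 0.16 (adjusted p 0.935), and the cage terms gave -1.08 (titles, adjusted p 0.673) and 0.91 (file names, adjusted p 0.9995), so these data give no direction for Plvap.

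Plvap is also a gene of the fenestrated vessels of the choroid plexus, and markers of choroid plexus epithelium varied between libraries. Of these 6 markers 0 were called in edgeR, 4 were lower in KO at an unadjusted p under 0.05, and DESeq2 called 2 lower. Among all genes tested, 5.61% were lower at that unadjusted p and DESeq2 called 1.36% lower. Their sum was 1892 CPM in WT pup 5, 887 in WT pup 2, 452 in WT pup 1 and 369 in WT pup 3, and 20.5 to 294 CPM in KO. Ttr (transthyretin) made up most of it, with 1823 CPM in WT pup 5. Kl was at 0 counts in KO pup 1 and Kcnj13 in KO pup 3. WT pup 5 thus held both the highest Plvap and the highest choroid sum, whereas KO pups 1 and 3, next in order for Plvap, had the lowest choroid sums of the 8 libraries (86.3 and 20.5 CPM). Tip cell and immature vessel markers, another setting in which Plvap is known, summed to 2247 to 2659 CPM in KO and 2260 to 3046 CPM in WT. None of these 10 markers was called in edgeR (2 lower at an unadjusted p under 0.05, 1 lower in DESeq2), with Cxcr4 at -0.48 (adjusted p 0.237) and Lamb1 at -0.22. The part of either cell population in the Plvap values was not tested.

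**Figure D4:**
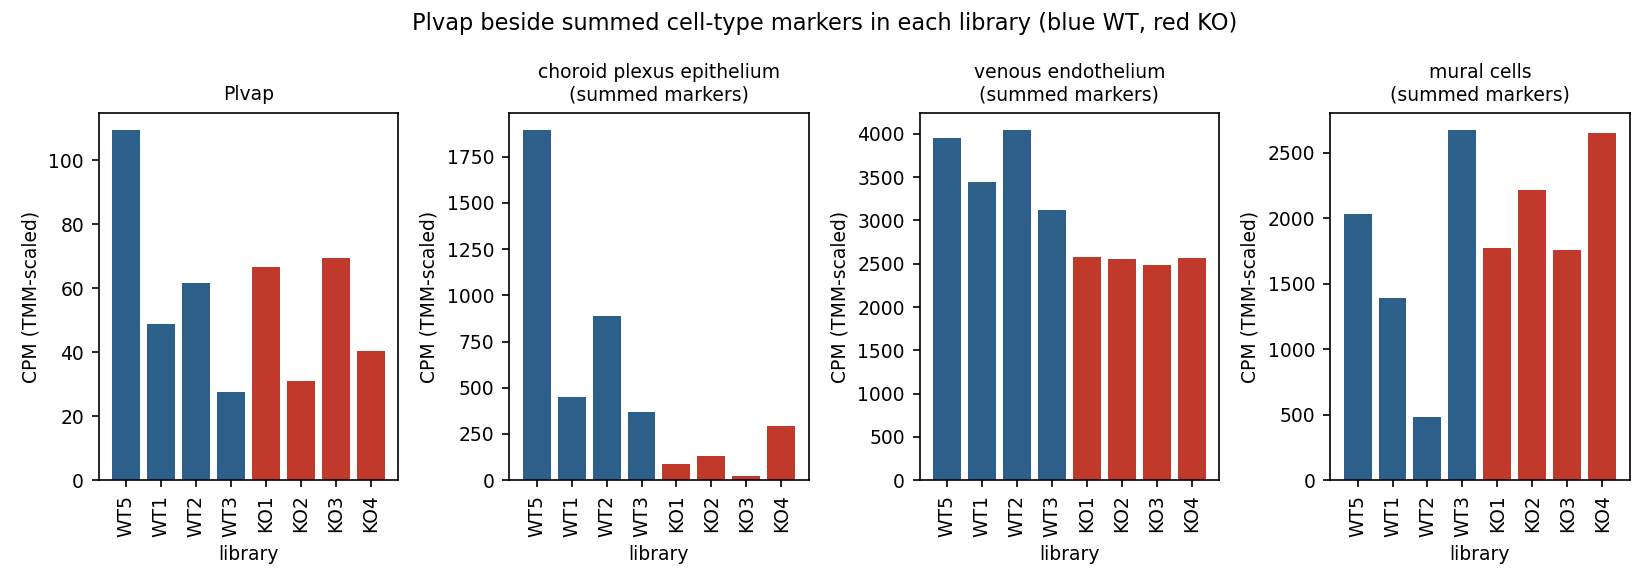
TMM-scaled CPM (vertical axes, from 0) of Plvap and of the summed markers of choroid plexus epithelium, venous endothelium and mural cells in the 4 WT (blue) and 4 KO (red) libraries. WT pup 5 has the tallest bar for Plvap (109 CPM) and for choroid plexus (1892 CPM), and the venous bars of all WT pups exceed those of all KO pups. Vwf alone makes up most of each WT venous bar.

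Mfsd2a, at chromosome 4, 122946850 to 122961188, minus strand, showed no detectable difference. It measured 1287, 1290, 1173 and 1031 CPM in KO pups 1 to 4 and 1238, 1348, 1055 and 1448 CPM in WT pups 5, 1, 2 and 3. The lowest WT pup, WT pup 2, lay below 3 of the KO pups, and the groups overlapped over most of their range. The log2 fold change was -0.09 (SE 0.11, adjusted p 0.819), with an interval from a 20.1% decrease to a 10.5% increase. With the cages of the file names as a term the value was -0.28 (adjusted p 0.9995).

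Lrp8 lies on the same chromosome, at 107802261 to 107876840, plus strand. It measured 1192, 1140, 1103 and 919 CPM in KO pups 1 to 4 and 1423, 1336, 1404 and 1360 CPM in WT pups 5, 1, 2 and 3. The 4 WT pups lay within 1.06-fold of each other, and every KO pup was below them. Lrp8 in KO stood at 78.8% of WT, and its log2 fold change was -0.34 (SE 0.08, interval -0.53 to -0.16), with an edgeR adjusted p of 0.134 and a DESeq2 adjusted p of 0.0057. Unlike Plvap, Lrp8 was similar with the cages of the titles (-0.39, adjusted p 0.547) and of the file names (-0.32, adjusted p 0.883) as a term, though not called under either.

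**Figure D5:**
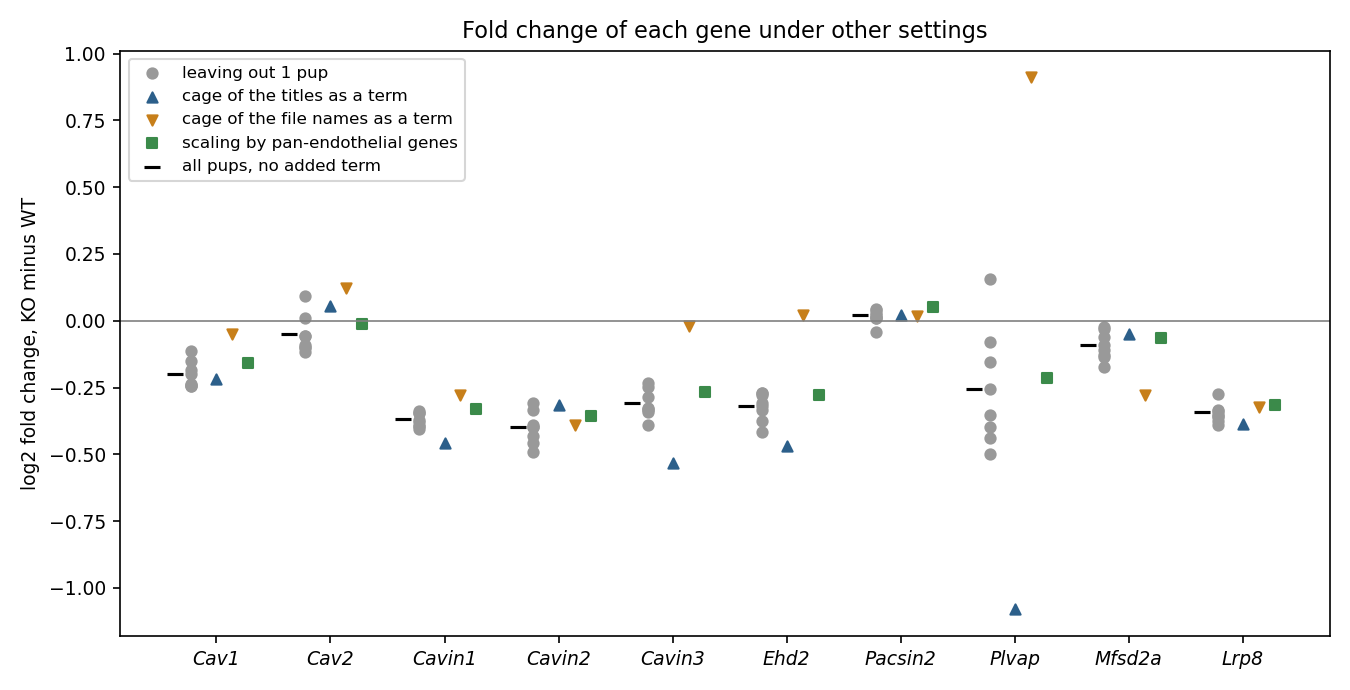
Log2 fold change (KO minus WT, vertical axis) of each gene with all pups (black line), with 1 pup left out (grey), with either cage term (triangles) and with scaling by pan-endothelial genes (green). Cav1, Cavin1, Cavin2, Cavin3, Mfsd2a and Lrp8 lie below 0 in every fit drawn, and Plvap spans -1.08 to 0.91.

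Between the genes themselves, likeness was measured as the root-mean-square difference of log2 CPM over the 8 libraries after centring each gene on its mean. Of the 45 pairs, Cavin3 and Ehd2 were closest (0.07), followed by Cavin1 with Cavin3 (0.10) and Cav1 with Cav2 (0.11). The largest differences all involved Plvap, up to 0.68 with Mfsd2a. The measure is not scaled for the spread of each gene. Plvap had a root-mean-square of 0.62 about its own mean, beside 0.07 for Pacsin2, so its distances largely reflect its own variation. Other tested genes were compared where their mean log2 CPM reached 3, a pool of 9945. Small distances are partly a product of picking the nearest from so many, and shared regulation was not tested. The nearest to Cavin1 was Crim1, a transmembrane protein of endothelial cells (0.03), which measured 88.1 CPM in KO and 114 in WT. Both genes had a log2 fold change of -0.37, and the median distance of the pool to Cavin1 was 0.255. The nearest to Mfsd2a was Spock2, a proteoglycan gene on the capillary list (0.04), and the nearest to Lrp8 was Rassf9 (0.04). Rfx3 was nearest to Cav1 (0.04), Eef2k to both Cavin3 (0.05) and Ehd2 (0.07), and Rab14, a vesicle GTPase, was among the 3 nearest to Pacsin2 (0.04). No gene came closer than 0.35 to Plvap, where Msx1 was nearest, followed by Dll1 (0.36) and Plpp3 (0.38).

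Among 13 tested genes of 14 listed as further caveolar and raft genes, edgeR called 0 (median 0.04, with 2 higher and 2 lower at an unadjusted p under 0.05), limma-voom called 0 and DESeq2 called 1, Nos3, lower in KO. Nos3, the endothelial nitric oxide synthase that binds caveolin-1, averaged 567 ± 66.1 CPM over the KO pups and 711 ± 61.8 CPM over the WT pups, and its log2 fold change was -0.33 (adjusted p 0.229) with no overlap between groups. Separation in this direction was seen for 1 of these 13 genes and for 3.43% of all genes tested. Pacsin3 (0.97, adjusted p 0.312) and the dynamin gene Dnm3 (0.36, adjusted p 0.247) lay in the other direction. Of all 14154 genes, 1575 had an edgeR unadjusted p under 0.05 in either direction, and 794 (5.61% of all) were lower in KO. DESeq2 called 1.36% of all genes lower.

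Clathrin endocytosis, the other main entry route, had a median of 0.01 with 0 of 19 genes called in edgeR or DESeq2 (2 higher and 0 lower at an unadjusted p under 0.05). Its members with the smallest p were Cltb at 0.26, the cargo adaptor Dab2 at 0.32 and Itsn1 at -0.23, with adjusted p of 0.32, 0.346 and 0.506. Receptors of transcytosis had 0 of 12 called in edgeR (1 higher and 2 lower at an unadjusted p under 0.05, 1 lower in DESeq2) and a median of -0.03. The growth factor receptor gene Igf1r was at -0.45 (adjusted p 0.152) with every KO pup below every WT pup. That separation was seen for 1 of the 12 receptor genes and for 3.43% of all genes tested. The scavenger receptor gene Scarb1 was at -0.26 (adjusted p 0.247), and the fatty acid receptor gene Cd36 averaged 42.8 ± 20.7 CPM over the KO pups and 20.4 ± 5.53 CPM over the WT pups (log2 fold change 1.08, adjusted p 0.226). Genes of vesicle sorting and fusion had 0 of 14 called in edgeR or DESeq2 (median 0.05, with 1 higher and 1 lower at an unadjusted p under 0.05), with Rab5c at 0.18, Rab11a at -0.16 and Rab5a at 0.18. Beside these counts, 1575 of all 14154 genes had an edgeR unadjusted p under 0.05 in either direction, and 794 (5.61% of all) were lower in KO. DESeq2 called 1.36% of all genes lower.

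The lists nearest to Mfsd2a and Lrp8 were lipid uptake and the reelin pathway. Of the 8 tested genes of 9 listed for brain lipid uptake, 0 were called in edgeR or DESeq2 (median -0.08, with 1 lower at an unadjusted p under 0.05), with the fatty acid transport gene Slc27a1 at -0.29 (adjusted p 0.416), Acsl1 at -0.11 and Fabp3 at -1.23 from under 1 CPM in both groups. The reelin pathway had 0 of 7 called in edgeR or DESeq2 (median 0.03, with 1 higher and 1 lower at an unadjusted p under 0.05), with the kinase genes Src at -0.28 (adjusted p 0.412) and Fyn at 0.11. Dab1, the adaptor of reelin receptors, was near 1 CPM or less (0.967 ± 0.534 in KO, 0.356 ± 0.0533 in WT), so its log2 fold change of 1.42 (adjusted p 0.433) rests on few reads. Across all 14154 genes, 1575 had an edgeR unadjusted p under 0.05 in either direction, and 794 (5.61% of all) were lower in KO.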

How the data were processed

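RNA from sorted brain endothelial cells of 8 pups was sequenced as stranded mRNA libraries with single-end reads of 100 bp, per the labels' protocols. The authors deposited whole-number counts per gene, 1 table per library; the submitters' processing notes name STAR, featureCounts and GRCm38. Tool versions, strand setting and annotation release are absent from the labels and headers. Symbols and exon lengths came from GENCODE M21, which named 25664 of 25700 identifiers. The main test was edgeR 4.0.16's quasi-likelihood F test (R 4.3.3): filterByExpr (minimum count 10, minimum total 15), TMM scaling, genotype as the single term, Benjamini-Hochberg adjustment over 14154 genes. CPM are TMM-scaled; log2 CPM used a prior count of 2; the SE was computed as the fold change over the square root of F. DESeq2 1.42.0 and limma 3.58.1 were alternatives, beside other scalings, no filter, cage terms, pup number as a block, thinning to 20858070 counts and libraries left out. Genes named besides the 10 were the 3 (2 for subtypes) with the smallest p in each list, any called list gene, and the nearest genes by profile; single marker genes of astrocytes and choroid plexus were named after their values were seen. The 10 genes and the lists were chosen with earlier results of these data known. On simulated counts for KO against WT (13915 genes), the fit called 61% of genes changed 1.5-fold and 84% of those changed 2-fold, all with a mean log2 CPM above 3, and 10 of 13715 unchanged genes. No 2 libraries held the same counts, since the chi-square per gene between any pair was at least 16.0. Equal pup numbers did not pair libraries of the groups. Replicates were separate pups.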

Additional observations from a re-analysis of the deposited data

Results flagged for a closer look

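In groups of 4 pups, 20 sets of values (10 genes in each genotype) were searched for a pup far from the others by Dixon's ratio of gap to range. Chance alone marks about 1 set in 20. Cav2 in WT pup 2 measured 227 CPM, with the next WT pup at 165 CPM and a gap of 0.892 of the range. Cavin3 in KO pup 2 measured 41.4 CPM, where the other KO pups lay between 50.02 and 51.2 CPM (0.877 of the range).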

How the results depend on the processing

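Of the 20 alternatives run, 1 changed the number of the 10 genes called: DESeq2 called 3, the other 19 called 0. The number called over all genes was 55, and 84 without a filter, 351 in DESeq2, 16 and 10 with the cages of titles and file names as a term, 22 in the KO cage of the titles alone and 32 to 85 with 1 pup left out. With pup number as a replicate block it was 11; libraries of equal number had deviations correlated at -0.03, 0.03 and -0.07, so the numbers do not pair them. Signs turned for Cav2 (0.054 and 0.12 with the cages of titles and file names, 0.054 in the KO cage of the titles alone, 0.0896 without KO pup 1 and WT pup 2, -0.116 to 0.0923 with 1 pup left out), Ehd2 (0.021, cages of the file names), Pacsin2 (-0.022 when thinned, -0.0402 to 0.0449 with 1 pup left out) and Plvap (0.91 with the cages of the file names, 0.27 with the block, -0.499 to 0.157 with 1 pup left out, highest without WT pup 5). Cav1, Cavin1, Cavin2, Cavin3, Mfsd2a and Lrp8 kept their sign in all 20. Over these alternatives adjusted p ran from 0.000441 to 0.883 for Cavin1, 0.0388 to 0.937 for Cavin2 and 0.0057 to 0.883 for Lrp8. The cause of these shifts was not tested. Differences near 1.3-fold lie under the smallest fold size simulated.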
